A study of Mus musculus with 7 samples.

Results

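The genes described are 10 chaperones and factors of the endoplasmic reticulum (ER) in mouse spleen cells: Hspa5, Hsp90b1, Pdia4, Pdia6, Dnajb9, Herpud1, Sdf2l1, Creld2, Manf and Xbp1. They were taken by name as genes of the Atf6 and Xbp1 branches of the unfolded protein response, and every probe set annotated to one of them alone was used. All 10 were measured, by 18 of the 22625 probe sets tested, among 12393 genes named. Several probe sets covered 6 of the genes and 1 probe set covered each of the other 4.

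The cells were CD11c-positive cells enriched magnetically from mouse spleens, collected on day 7 of an allogeneic hematopoietic stem cell transplant, that is, a graft of blood-forming cells from a genetically different donor. The 3 arrays called HM1 to HM3 were labelled Atg16L1 hypomorphic and the 4 called WT1 to WT4 wild type, all on the C57BL/6J background. The mice of both groups had been transplanted, at 9 weeks of age at collection per the sample protocol and 8 weeks per the series description. A hypomorph keeps part of a gene's function, and Atg16l1 is needed to attach LC3 to forming autophagosomes. The labels do not say whether recipient, donor or both carried the genotype, nor that the samples of a group were different animals. The p-values therefore cover the spread among these 7 samples alone, which may be technical.

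Proteins that enter the ER fold there with the help of chaperones, and the unfolded protein response adjusts the number of these helpers to the load. When unfolded proteins build up, Atf6 is cut and released as a transcription factor, and the kinase and nuclease Ire1 splices Xbp1 mRNA so that it encodes an active transcription factor. Both factors act on ER stress response elements in the promoters of chaperone genes. Dendritic cells, the antigen-presenting cells that CD11c marks in the spleen, depend on Xbp1 in the mouse.

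The promoter stretches are shown because they are what several of the 10 genes share apart from their names. The genes were chosen from the Atf6 and Xbp1 branches, so ER stress response elements were likely among them. The shares below are a description, not a test. RefSeq promoters of the GRCm38.p6 assembly, from 250 bases before to 50 after the annotated start, were held for 9 of the 10 genes. The ER stress response element, searched as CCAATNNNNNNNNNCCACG on both strands, occurred in the promoters of Hspa5, Hsp90b1, Pdia6 and Creld2, 4 of these 9 genes, and in 0.119% of 32851 promoters of the same length. The related element II, searched as ATTGGNCCACG, occurred in Herpud1 and in 0.0365% of all promoters. The letters CCACG alone, which both elements contain, occurred in 8 of the 9 and in 32.8% of all promoters. They also occurred in 62 of 93 genes of the pathway lists described further below for which a promoter was held. The letters TGACGTGG of the unfolded protein response element occurred in 0 of the 9, in 7 of those 93 and in 0.676% of all promoters. Each line below gives a stretch in the direction of its gene, with the fixed letters of the element in capitals. On the opposite strand the fixed letters read CGTGG and ATTGG.
Hspa5, chr2:34771995-34772073, plus strand: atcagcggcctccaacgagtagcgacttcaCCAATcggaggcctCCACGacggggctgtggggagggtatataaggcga
Hsp90b1, first element, chr10:86705608-86705686, minus strand: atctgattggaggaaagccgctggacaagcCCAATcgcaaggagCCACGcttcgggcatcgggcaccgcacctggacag
Hsp90b1, second element, chr10:86705503-86705581, minus strand: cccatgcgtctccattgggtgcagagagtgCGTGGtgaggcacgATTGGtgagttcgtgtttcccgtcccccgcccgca
Pdia6, chr12:17266461-17266539, plus strand: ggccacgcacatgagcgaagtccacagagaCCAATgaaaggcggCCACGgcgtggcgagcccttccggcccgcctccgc
Herpud1, element II, chr8:94386347-94386417, plus strand: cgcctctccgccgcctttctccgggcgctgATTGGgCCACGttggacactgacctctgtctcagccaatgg
Creld2, chr15:88819490-88819568, plus strand: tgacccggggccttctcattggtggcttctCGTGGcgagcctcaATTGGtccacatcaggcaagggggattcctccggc

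The element closest to its start was that of Herpud1, from 52 to 42 bases before it, and that of Hspa5 lay from 65 to 47 bases before it. Hsp90b1 held 2 elements, from 212 to 194 and from 107 to 89 bases before the start. Exact matches alone were searched, so elements that differ in a fixed letter were not counted. A match of letters is a description and does not show that a factor binds there.

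**Figure D1:**
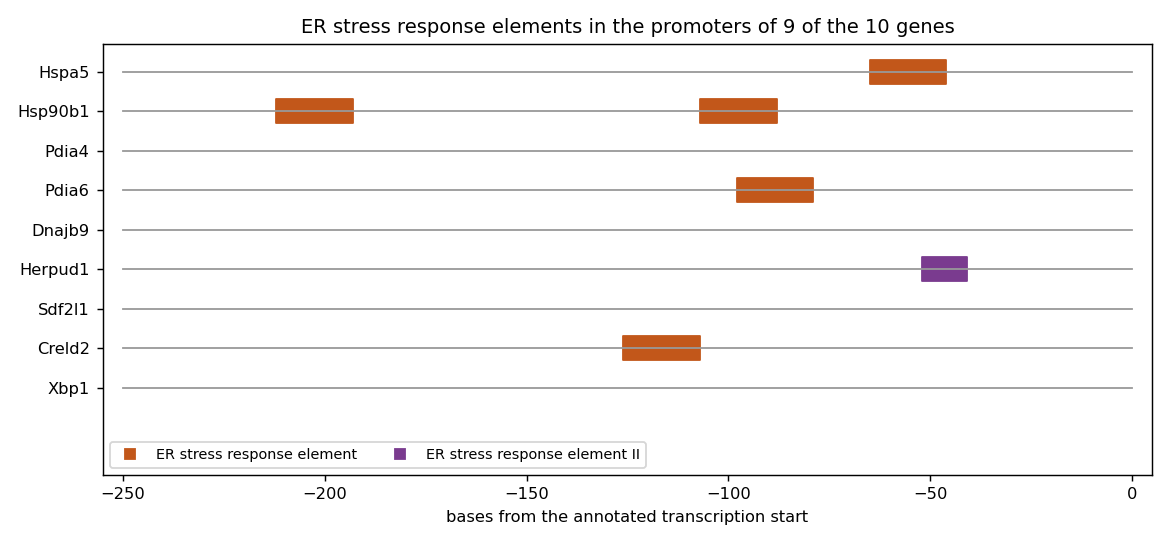
Positions of ER stress response elements (orange) and element II (purple) in the 250 bases before the annotated start of 9 genes, in bases from the start. Hsp90b1 has 2 exact matches, Hspa5, Pdia6, Herpud1 and Creld2 have 1 each, and Pdia4, Dnajb9, Sdf2l1 and Xbp1 have none.

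Each array gave 1 log2 value per probe set, with array medians from 5.46 to 5.53, and precision is limited by having 3 and 4 arrays. Atg16l1 read 6.86, 6.76 and 6.94 in the hypomorph arrays against 7.42, 7.33, 7.26 and 7.20 in wild type, 1.36-fold lower in the hypomorph with no overlap (limma adjusted p = 0.462). All 9 markers of dendritic cells, Itgax for CD11c and MHC class II genes among them, read above the lower quartile of every array, and their summed linear signal was 8807 to 12457 in the hypomorph and 8577 to 10179 in wild type. Markers of other cells were present too, and their part in the values of the 10 genes was not tested. Changes were negative for 20 of 20 cell cycle genes (median -0.40). At an unadjusted limma p under 0.05, 8 of them were lower, against 3.59% of all genes. Their deviation from the 7-array means averaged -0.26, 0.18 and -0.53 in HM1 to HM3. In WT1 to WT4 it averaged 0.14, 0.28, 0.04 and 0.15. Changes were positive for 12 of 12 red pulp macrophage markers (median 0.24). These deviated by 0.27, 0.04 and 0.13 in HM1 to HM3 and by -0.71, 0.26, -0.38 and 0.39 in WT1 to WT4. For both lists the levels of the groups overlapped. Neutrophil markers (10 of 10 above the lower quartile on all arrays) had negative changes in 10 of 10 (median -0.53) and summed to 40549 to 69453 in the hypomorph and 62918 to 70187 in wild type. Of these 10, 3 were lower at an unadjusted limma p under 0.05, against 3.59% of all genes. Plasma cells and pancreatic acinar cells are rich in ER. Plasma cell markers (9 of 10) summed to 11354 to 17715 in the hypomorph and 6754 to 12708 in wild type. Acinar markers (12 of 18) summed to 847 to 1836 in the hypomorph and 949 to 7122 in wild type. Acinar changes were negative in 17 of 18 (median -1.92). Of these markers 6 were lower and 1 was higher at an unadjusted limma p under 0.05, against 3.59% and 3.57% of all genes. In these 3 lists 0 markers stayed under the lower quartile on all 7 arrays. In such bulk samples, fewer cells of a type and less RNA per cell cannot be told apart.

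For 8 of these 10 ER genes the groups overlapped on every probe set, and Hsp90b1 and Herpud1 had probe sets that were higher in all hypomorph arrays. In limma, 0 of the 18 probe sets had an adjusted p under 0.05, against 0.0% of all 22625. At an unadjusted p under 0.05, 2 of the 18 differed, 1 each of Hsp90b1 and Herpud1, against 7.69% of all probe sets. Both were higher in the hypomorph, against 4.35% of all probe sets, and 0 were lower, against 3.34%. The groups did not overlap for 3 of the 18, again Hsp90b1 and both probe sets of Herpud1, against 5.57% of all probe sets. All 3 were higher in the hypomorph, against 3.07% of all probe sets higher and 2.5% lower. The log2 change was positive for 12 of the 18, against 50.6% of all probe sets. With each gene on its probe set of highest mean, 6 of 10 changes were positive, against 49.2% of all genes. Their median was 0.031, against -0.0024 over all genes.

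Hspa5 encodes BiP, the main Hsp70 chaperone of the ER lumen and the usual readout of the response. Its probe set 1416064_a_at read 11.24, 11.45 and 11.16 in the hypomorph arrays against 11.19, 11.24, 11.23 and 11.43 in wild type. HM2 and WT4 were high and the other 5 arrays lay close together, and the groups overlapped. The means were 11.28 ± 0.152 (SD, n = 3) in the hypomorph and 11.27 ± 0.105 (SD, n = 4) in wild type. On the log2 scale the change was 0.010 (95% confidence interval -0.21 to 0.23), which holds changes between 1.16-fold lower and 1.17-fold higher (limma adjusted p = 0.983). The second probe set, 1427464_s_at, read 10.28, 10.52 and 10.24 in the hypomorph and 10.32, 10.25, 10.36 and 10.48 in wild type, with a change of -0.0073 and an interval from -0.22 to 0.21. It too was highest in HM2 and WT4.

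Hsp90b1 encodes GRP94, the Hsp90 chaperone of the ER, whose known clients include integrins and Toll-like receptors. Its 2 probe sets gave different answers. Probe set 1415889_a_at read 10.99, 11.06 and 11.01 in the hypomorph arrays against 10.80, 10.86, 11.03 and 11.07 in wild type. The hypomorph values lay inside the wild-type range, with a change of 0.076 (95% confidence interval -0.12 to 0.27, limma adjusted p = 0.818). Probe set 1438040_a_at read 10.56, 10.66 and 10.52 in the hypomorph against 9.96, 9.89, 10.20 and 10.32 in wild type. The lowest hypomorph value exceeded the highest wild-type value by 0.20. Its means were 10.58 ± 0.071 (SD, n = 3) in the hypomorph and 10.09 ± 0.200 (SD, n = 4) in wild type, a change of 0.49 with an interval from 0.22 to 0.75, or 1.40-fold (limma unadjusted p = 0.0030, adjusted p = 0.644, exact two-sided permutation p = 0.0571). It was the largest change among the 18 probe sets.

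The gap between the Hsp90b1 probe sets was set against the same gap in the other genes with several probe sets. The value of 1438040_a_at minus that of 1415889_a_at was -0.42, -0.39 and -0.49 in the hypomorph arrays and -0.84, -0.96, -0.84 and -0.75 in wild type. The gap was narrower in each of the 3 hypomorph arrays than in any of the 4 wild-type arrays. Of 11 such pairs in 6 genes, the Hsp90b1 pair alone had groups that did not overlap (exact two-sided permutation p = 0.0286, the smallest that 3 and 4 arrays allow, and 0.314 after Benjamini-Hochberg adjustment over the 11 pairs). The 11 pairs are not independent, since the Xbp1 probe sets were all paired with each other. Pairs of Pdia4, Pdia6 and Xbp1 also set a bright probe set against a dim one, so they are a weak comparison. Over all 4955 genes with several probe sets, the gap between the 2 highest did not overlap between groups in 9.63%. Which part of the transcript each probe set covers was not analysed here.

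The disulfide isomerases Pdia4 and Pdia6 catalyse the formation of disulfide bonds in folding proteins. Pdia4 (1416497_at) read 7.57, 7.97 and 7.86 in the hypomorph arrays against 7.72, 7.76, 7.82 and 8.20 in wild type. HM1 was the lowest array and WT4 the highest, and the change of -0.078 had an interval from -0.41 to 0.26, the widest of the 18. Pdia6 (1423648_at) read 8.92, 9.11 and 8.93 in the hypomorph against 8.95, 8.98, 8.97 and 9.27 in wild type. WT4 stood above the other 3 wild-type arrays, which lay close together, and the change was -0.057 with an interval from -0.29 to 0.17. The limma adjusted p was 0.901 for Pdia4 and 0.893 for Pdia6. A second probe set of Pdia4, 1450620_at, read 2.73 to 2.87 in the hypomorph and 2.65 to 2.73 in wild type, under the lower quartile of all 7 arrays. That of Pdia6, 1430983_at, read 3.12 to 3.28 in the hypomorph and 2.99 to 3.43 in wild type, under the lower quartile of 5 arrays.

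Dnajb9 encodes ERdj4, a J-domain partner of BiP and a target of Xbp1. It read 8.48, 8.50 and 8.62 in the hypomorph arrays against 8.19, 8.45, 8.40 and 8.59 in wild type. WT1 was the lowest array and the groups overlapped. The change was 0.13 with an interval from -0.10 to 0.36 (limma adjusted p = 0.742).

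Herpud1 encodes HERP, an ER membrane protein of the degradation pathway that returns misfolded proteins to the cytosol. Its probe set 1448185_at read 8.85, 8.84 and 9.14 in the hypomorph arrays against 8.61, 8.50, 8.82 and 8.81 in wild type. HM3 was the highest array, and the lowest hypomorph array exceeded the highest wild-type array by 0.021. The change was 0.26 with an interval from -0.0054 to 0.52, or 1.20-fold (limma unadjusted p = 0.0537, adjusted p = 0.644, exact two-sided permutation p = 0.0857). Probe set 1435626_a_at read 7.48, 7.31 and 7.66 in the hypomorph against 7.24, 7.22, 7.29 and 7.27 in wild type. Here the wild-type arrays spanned less than 0.1 and HM3 was again highest. The change was 0.23 with an interval from 0.019 to 0.43, or 1.17-fold (limma unadjusted p = 0.0361, adjusted p = 0.644, exact two-sided permutation p = 0.0286). With single arrays left out, the unadjusted limma p of 1435626_a_at was over 0.05 in 6 of 7 fits, from 0.0556 without WT3 to 0.117 without HM3, and was 0.0057 without HM2. That of 1448185_at was under 0.05 in 2 of 7 fits, without WT3 and without WT4. The changes were smallest without HM3, at 0.16 for 1448185_at and 0.14 for 1435626_a_at.

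**Figure D2:**
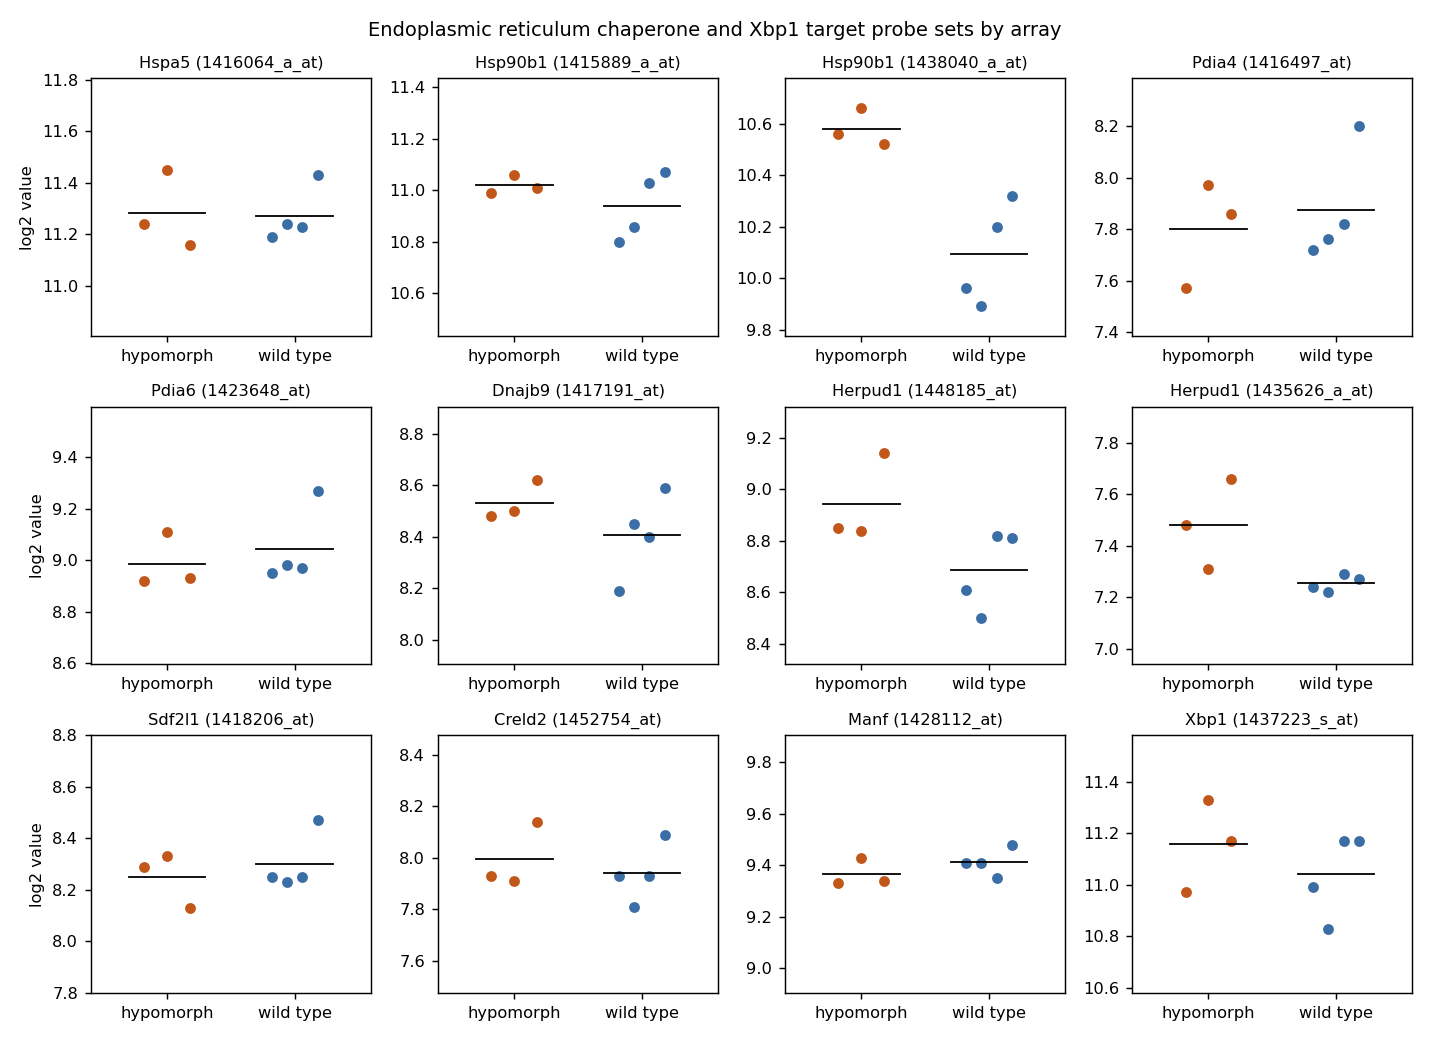
Log2 value of each array for 12 of the 18 probe sets: the probe set of highest mean for each of the 10 genes and the others whose groups did not overlap. Points are arrays (3 hypomorph, left, and 4 wild type, right), black bars are group means, and every panel spans 1 log2 unit. Only Hsp90b1 1438040_a_at and the 2 Herpud1 panels have all hypomorph arrays above all wild-type arrays.

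Sdf2l1, Creld2 and Manf are small soluble ER proteins, all known to be induced by ER stress. Sdf2l1, which works in a complex with J-domain proteins and BiP, read 8.29, 8.33 and 8.13 in the hypomorph arrays against 8.25, 8.23, 8.25 and 8.47 in wild type. Its lowest array was HM3 and its highest WT4, and the change was -0.051 with an interval from -0.25 to 0.15. Creld2 read 7.93, 7.91 and 8.14 in the hypomorph against 7.93, 7.81, 7.93 and 8.09 in wild type, a change of 0.052 with an interval from -0.16 to 0.27. HM3 and WT4 were its high arrays. Manf, a factor that the ER retains and that can also be secreted, read 9.33, 9.43 and 9.34 in the hypomorph against 9.41, 9.41, 9.35 and 9.48 in wild type. Its change of -0.044 had the narrowest interval of the 18, from -0.19 to 0.10, which holds changes between 1.14-fold lower and 1.07-fold higher. The limma adjusted p was 0.892 for Sdf2l1, 0.895 for Creld2 and 0.868 for Manf, and the groups of each gene overlapped.

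Xbp1 itself was measured by 4 probe sets. Probe set 1437223_s_at read 10.97, 11.33 and 11.17 in the hypomorph arrays against 10.99, 10.83, 11.17 and 11.17 in wild type. HM2 was the highest array and WT2 the lowest. The change was 0.11 with an interval from -0.16 to 0.39, and the groups overlapped (limma adjusted p = 0.803). Probe set 1420886_a_at gave 0.15 (interval -0.19 to 0.48) and 1420011_s_at 0.12 (interval -0.20 to 0.44). Both were also highest in HM2 and lowest in WT2. The dim probe set 1420012_at, which read 4.24 to 4.30 in the hypomorph and 4.02 to 4.33 in wild type, gave 0.038. The values count Xbp1 transcripts by gene and were not used to separate the spliced from the unspliced form.

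**Figure D3:**
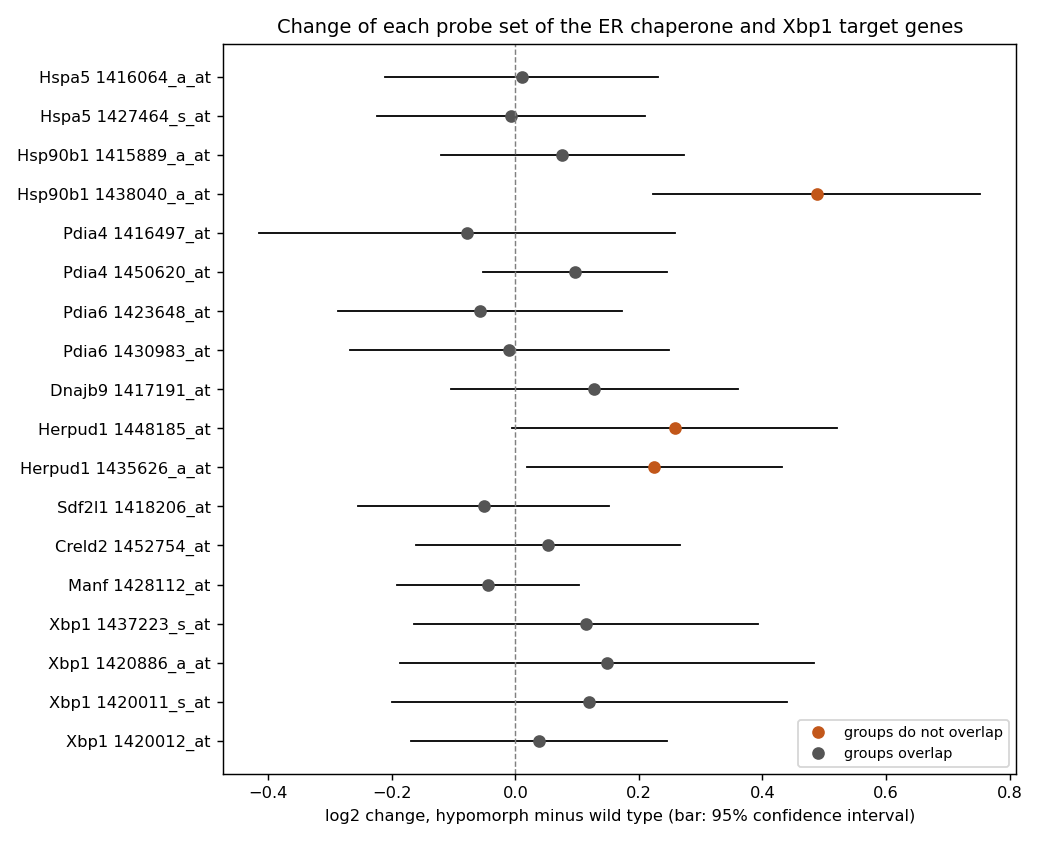
Log2 change (hypomorph minus wild type, horizontal axis) of each of the 18 probe sets, with its 95% confidence interval from the limma fit. Orange points mark the 3 probe sets whose groups do not overlap, and the intervals of Hsp90b1 1438040_a_at and Herpud1 1435626_a_at are the ones that leave out 0.

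Single arrays were high for several of the genes at once. Among the wild-type arrays WT4 was highest for 9 of the 10 genes (all but Herpud1). Among the hypomorph arrays HM2 was highest for 7, with HM3 highest for Dnajb9, Herpud1 and Creld2. The share of all genes highest in these arrays was not counted. WT4 also had the highest median (5.53) and upper quartile (7.65) of the 7 arrays. HM2 had the highest of the hypomorph arrays (5.52 and 7.63). The mean deviation of the 10 genes from their 7-array means was -0.05, 0.08 and 0.04 in HM1 to HM3 and -0.10, -0.10, -0.01 and 0.15 in WT1 to WT4. Pdia4 had the largest single deviation, 0.36 in WT4, followed by Herpud1, 0.34 in HM3.

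The levels of the lists for other ER-rich cells differed between the same arrays. The acinar list deviated by -1.41, -1.46 and -0.03 in HM1 to HM3 and by -0.85, 0.15, 1.42 and 2.18 in WT1 to WT4. WT4, with the highest mean of the 10 genes, had the highest acinar level. HM2, with the second highest mean of the 10 genes, had the lowest acinar level. The share of all genes that were highest in WT4 was not counted, and a link between the 2 levels was not tested. When the acinar level entered the fit as a covariate, the 10 genes had a median change of 0.16 and 4 probe sets were higher at an unadjusted p under 0.05 in the limma fit, against 5.25% of all probe sets. They were Hsp90b1 1438040_a_at, both of Herpud1 and Dnajb9. Without WT3 and WT4, a setting chosen after the data were seen, the median was 0.095 and 3 probe sets were higher, against 3.42% of all probe sets. They were Hsp90b1 1438040_a_at, Herpud1 1448185_at and Xbp1 1420886_a_at, while Herpud1 1435626_a_at had an unadjusted limma p of 0.094. In either setting 0 of the 18 passed the adjusted threshold, and Hsp90b1 1438040_a_at had changes of 0.65 in both. The plasma cell list deviated by 0.11, 0.03 and 0.75 in HM1 to HM3 and by -0.38, -0.50, 0.11 and -0.12 in WT1 to WT4, highest in HM3, where Dnajb9, Herpud1 and Creld2 were also highest. Of its 10 measured markers 9 had a positive change, with a median of 0.42. At an unadjusted limma p under 0.05, 3 of the 10 were higher and 0 were lower, against 3.57% and 3.59% of all genes. The mean plasma cell level was 0.30 in the hypomorph and -0.22 in wild type, and no fit used it as a covariate. The part of plasma cells in the values of these genes was not tested.

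**Figure D4:**
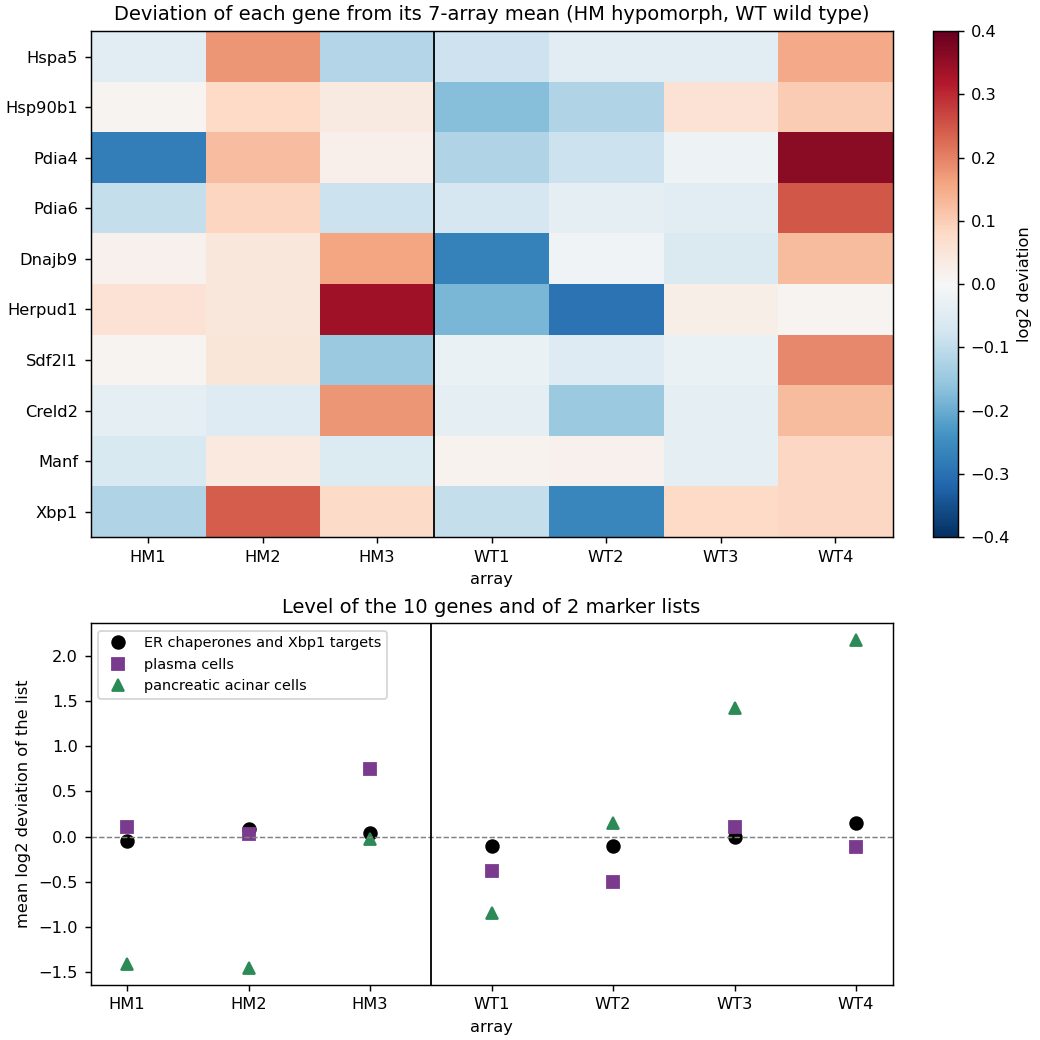
Top, log2 deviation of each of the 10 genes from its mean over the 7 arrays (probe set of highest mean), with red above and blue below that mean. Bottom, mean log2 deviation of the 10 genes and of the plasma cell and acinar marker lists on each array. WT4 is highest for the 10 genes (0.15) and for the acinar list (2.18), and HM3 for the plasma cell list (0.75).

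Genes of the same pathway outside the 10 included few calls. In 5 lists with 99 measured of 108 listed genes, 0 passed the adjusted threshold, 1 was higher and 2 were lower at an unadjusted p under 0.05, against 3.57% higher and 3.59% lower over all 12393 genes on their probe set of highest mean. Of 13 sensors and regulators of the response, among them Ern1 for Ire1, Atf6 and Eif2ak3 for Perk, 7 had a positive change and the median was 0.011. The smallest p belonged to Wfs1, an ER membrane protein that restrains Atf6, with 5.02, 5.04 and 5.11 in the hypomorph against 4.77, 4.89, 4.96 and 4.96 in wild type, without overlap and with a change of 0.16 (limma adjusted p = 0.644). Atf6b, Nfyb and Ppp1r15a had changes of 0.15, -0.13 and 0.16, and their groups overlapped.

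Among 26 other luminal chaperones and folding enzymes 15 had a positive change, with a median of 0.014, which was 0.045 without WT4 and 0.070 with the acinar covariate. Pdia3, the isomerase that serves glycoproteins and the loading of MHC class I, read 9.71, 10.09 and 9.81 in the hypomorph against 10.13, 9.76, 10.08 and 10.39 in wild type, a change of -0.22 with an interval from -0.58 to 0.14. WT4 was again its highest array. Sdf2, Sil1 and Dnajc3 had changes of 0.14, 0.12 and 0.094.

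The list for ER-associated degradation, the pathway of Herpud1, had the highest median of the 5, at 0.080, with 12 of 17 genes positive. Edem3, which trims mannose from misfolded glycoproteins, read 8.42, 8.43 and 8.57 in the hypomorph against 8.21, 8.19, 8.30 and 8.32 in wild type. Its groups did not overlap, with a change of 0.22 and an interval from 0.052 to 0.39 (limma unadjusted p = 0.0166, adjusted p = 0.644). Edem1 and Derl3 had larger changes, 0.26 and 0.28, with overlapping groups, and HM3 was their highest array at 9.30 and 5.93. Syvn1, the ubiquitin ligase Hrd1, had a change of 0.090 without overlap. Without HM3 the list median was 0.023.

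Genes that bring proteins into the ER and glycosylate them had a median of -0.027, with 12 of 25 positive. Rpn1, a subunit of the oligosaccharyltransferase, read 9.72, 10.03 and 9.97 in the hypomorph against 10.15, 10.13, 10.12 and 10.11 in wild type. All hypomorph arrays were below all wild-type arrays, with a change of -0.22 (limma unadjusted p = 0.0323, adjusted p = 0.644). Stt3a, the catalytic subunit, had a change of -0.19 with unadjusted p = 0.0411 in the limma fit and touched the wild-type range at 9.83. Sec61b of the translocon had a change of -0.16, with all hypomorph arrays below all wild-type arrays by at least 0.016. Sec11c of the signal peptidase had a change of -0.16 with overlap. Of 18 genes of ER to Golgi transport 8 were positive, with a median of -0.015 that turned to 0.026 without WT4 and 0.053 with the acinar covariate. Surf4, Lman1, Sec24d and Kdelr1 had changes of -0.21, 0.13, 0.18 and 0.079.

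The ER stress response element or element II was also found in the promoters of 8 genes of these lists with a probe set: Calr, Canx, Dnajb11, Dnajc3, Ero1b, Syvn1, Derl3 and Krtcap2. Their changes ran from -0.14 for Canx to 0.28 for Derl3, with 6 of 8 positive, against 49.2% of all genes. Among the positive ones, Dnajb11 (0.0024) and Krtcap2 (0.0017) were near 0. The changes of the 5 genes printed above with an element ran from -0.057 for Pdia6 to 0.26 for Herpud1.

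**Figure D5:**
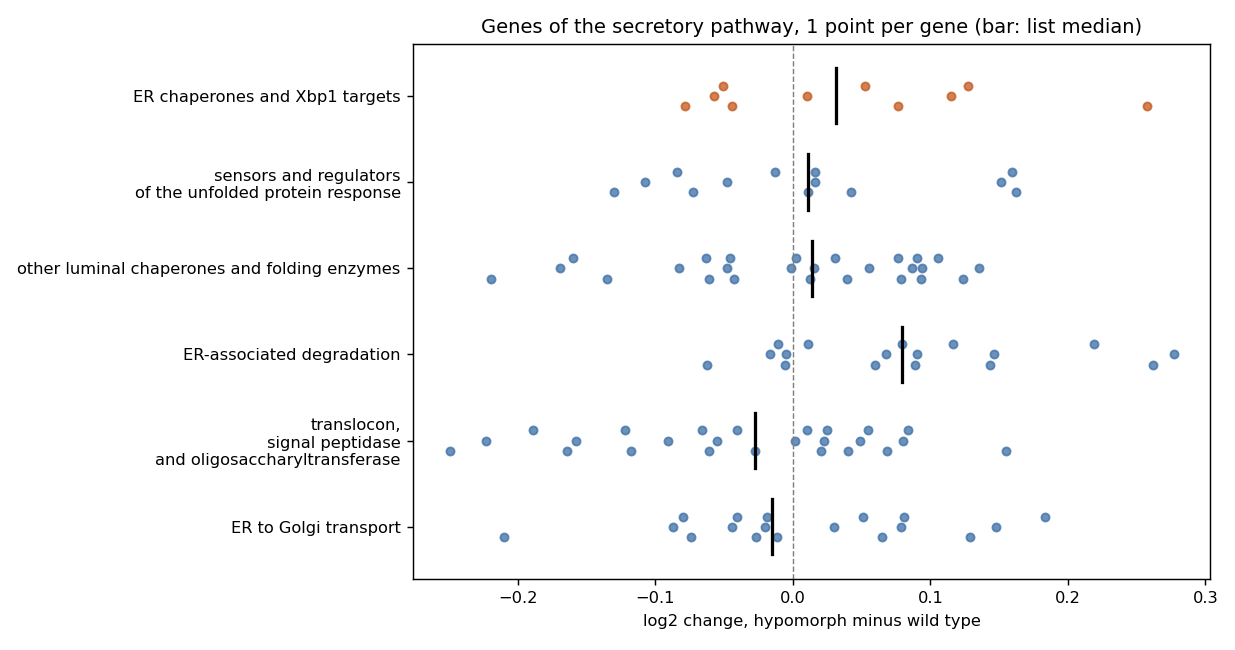
Log2 change (hypomorph minus wild type, horizontal axis) of each gene on its probe set of highest mean, for the 10 genes (orange) and 5 pathway lists (blue), with list medians as black bars. The list medians run from -0.027 (translocon and glycosylation) to 0.080 (ER-associated degradation), and that of the 10 genes is 0.031.

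The genes whose profile over the 7 arrays was most like the mean of the 10 were found by Pearson r among 9092 other genes with an SD of at least 0.1. They were Rab29 (r = 0.979), Iqgap1 (0.964), Poglut1 (0.952), Asb4 (0.945) and BC147527 (0.937). Poglut1 encodes a glucosyltransferase of the ER. Rab29 read 7.88, 8.10 and 8.06 in the hypomorph against 7.87, 7.78, 7.97 and 8.18 in wild type, highest in WT4 and HM2 like the mean of the 10. For Xbp1 alone they were Ganc (0.971), Sdccag8 (0.956), Ciao2b (0.950), Aftph (0.945) and Cebpg (0.944). With 7 arrays and so many genes, values of this size are a description only.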

How the data were processed

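RNA (100 ng of total RNA per sample) from 7 spleen cell samples was hybridized to an Affymetrix mouse array. The authors deposited log2 values, 1 per probe set and array, and Affymetrix Power Tools is named per the submitters' processing notes. The sources used here do not give its version, the summary method or the normalization. Of 22690 probe sets, 64 controls and 1 without values were left out. Names came from the platform annotation, updated by Entrez identifier in RefSeq genes (20350 of 20379 probe sets naming 1 gene matched, 691 named several and 1555 none).

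The genotypes were set against each other in a linear model without a block (limma 3.58.1, R 4.3.3, Benjamini-Hochberg adjustment over all probe sets), tested on simulated data, where 35.6% of changes of 0.5 and 81.6% of 1 were recovered among 22625 probe sets. Exact permutation tests used all 35 splits. Genes and lists were chosen with earlier results of these data known. From each pathway list up to 4 genes of smallest p are named, and the 5 most alike per profile. Alternatives changed scaling, variance model, filter, block and samples.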

Additional observations from a re-analysis of the deposited data

Results flagged for a closer look

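In wild type, 4 of 37 sets of 4 arrays held 1 array far from the other 3 by Dixon's criterion. Chance gives about 1 in 20 for independent sets, and these share their arrays. Pdia6 1423648_at read 9.27 in WT4 against 8.95 to 8.98 in the others, and Sdf2l1 1418206_at read 8.47 in WT4 against 8.23 to 8.25. WT4 was also the array with the highest acinar level, and the part of acinar cells in these values was not tested. Pdia4 1450620_at read 2.65 in WT3 against 2.73 in each of the others, at the dim end of the array, so its flag rests on equal dim readings. Xbp1 1420012_at read 4.02 in WT2 against 4.30 to 4.33, and the brighter Xbp1 probe sets were lowest in WT2 as well.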

How the results depend on the processing

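Over 17 alternative settings no probe set of the 10 genes passed the adjusted threshold, and 0 were lower at an unadjusted p under 0.05 wherever probe sets were counted. Hsp90b1 1438040_a_at kept a change between 0.42 and 0.65 and Herpud1 1435626_a_at between 0.14 and 0.31. With single arrays left out, 1 to 2 probe sets were higher, against 2.64% to 6.24% of all probe sets, and the median change ran from -0.024 to 0.082. The count was 1, Hsp90b1 alone, without HM1, HM3, WT1 or WT2, and without WT3 or WT4 the second was Herpud1 1448185_at in place of 1435626_a_at. The acinar covariate, whose mean level differed between the genotypes, gave 4 higher probe sets, against 5.25% of all, and a median of 0.16. Signs turned for changes near 0, and the cause was not tested. Hspa5 1427464_s_at was at 0.0048 with quantile normalization, 0.037 with the replicate block, 0.032 with the acinar covariate and 0.063 without WT3 and WT4. Hspa5 1416064_a_at was at -0.0064 with array weights. Pdia4 1416497_at was at 0.031, 0.13 and 0.058 with the block, the covariate and without WT3 and WT4, and at 0.0091 as the mean of its probe sets. Pdia6 1423648_at was at 0.018, 0.039 and 0.020 in those 3 settings and 1430983_at at 0.018 without WT3 and WT4. Sdf2l1 was at 0.0060 with the block and 0.010 without WT3 and WT4. Leaving out single arrays moved Hspa5 from -0.075 to 0.072 and from -0.093 to 0.047 on its 2 probe sets, Pdia4 1416497_at from -0.16 to 0.038, Pdia6 from -0.12 to 0.018 and from -0.092 to 0.054, Sdf2l1 from -0.090 to 0.0079, Creld2 from -0.021 to 0.10 and Xbp1 1420012_at from -0.033 to 0.069. The replicate block changed no adjusted call. Same-numbered arrays deviated together with r = 0.102, 0.098 and 0.339, and HM3 alone matched its own number best, so the numbers were not taken as pairs. With the block, which gave the same changes as leaving out WT4 since WT4 has no partner, 2 probe sets were higher, against 4.18% of all, and the median was 0.082. They were Hsp90b1 1438040_a_at and Herpud1 1448185_at, and Herpud1 1435626_a_at lost its unadjusted call. The median of ER to Golgi genes also turned positive with the block (0.026), without HM1 (0.0039), without HM2 (0.0087), without WT3 and WT4 (0.0069) and with array weights (0.00097). That of sensors and regulators ran from -0.017 to 0.057 and that of other luminal chaperones from -0.0014 to 0.045 with single arrays left out. Over all probe sets, 5 passed the adjusted threshold after median centring and with trend and robust variance, 3 with array weights, 2 without HM2, 1 without HM1, 1 without WT3 and 0 in the reported setting. Probe sets under the lower quartile carry little signal.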
